A study of Mus musculus with 6 samples.

Results

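The angiopoietin and Tie receptor axis was examined as 6 genes among the 24421 gene symbols of the liver endothelial cell (EC) count table. They were taken by symbol for their roles and not by a threshold on values, but with earlier results of these data known. They comprised the ligand genes Angpt1, Angpt2 and Svep1, the receptor genes Tek and Tie1, and the receptor phosphatase gene Ptprb. All 6 were present in the table of raw counts and in the table of FPKM (fragments per kilobase of transcript, scaled to sequencing depth). All 6 also passed the filter on low counts, a CPM (the count of a gene as a share of all counts of its sample, in parts per 1000000) of 0.5 reached in any sample, which kept 14612 genes. CD31+CD45- cells of the liver were collected by FACS from wild-type C57BL/6J females, and their RNA was sequenced. The young group held 3 samples of 10 weeks of age and the aged group held 1 sample each of 127, 131 and 136 weeks. The labels name no transgene and no treatment in either group. The question put to the samples was how transcripts of liver ECs differ between these ages, and here it was asked of the angiopoietin and Tie genes.

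The angiopoietin and Tie axis is a signalling system of ECs that holds vessels in a quiescent state and sets their permeability. Tek encodes Tie2, the receptor tyrosine kinase of the axis. Angpt1 encodes its agonist ligand angiopoietin-1, which is made chiefly by perivascular and mesenchymal cells and is carried by platelets. Angpt2 encodes angiopoietin-2, which ECs themselves store and release and which acts on Tie2 as an antagonist or a weak agonist according to context. Tie1 encodes the related receptor that has no angiopoietin ligand of its own and modulates Tie2. Ptprb encodes vascular endothelial protein tyrosine phosphatase (VE-PTP), which dephosphorylates Tie2 and VE-cadherin. Svep1 encodes polydom, a large extracellular matrix protein that binds integrin alpha 9 beta 1 and has been described as a ligand of the Tie axis in lymphatic vessels.

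The genes lie on 4 mouse chromosomes, and 3 of them share chromosome 4. In mm9, the build named for the deposited values, with the gene models of GENCODE M1, Svep1 lies on the minus strand at chr4:58055314-58219731, with 48 exons in its longest transcript. Tek lies on the plus strand at chr4:94405980-94541667, with 23 exons, and Tie1 lies on the minus strand at chr4:118143796-118162666, with 22 exons. Angpt1 lies on the minus strand at chr15:42256273-42508523 and Angpt2 on the minus strand at chr8:18690263-18741562, each with 9 exons. Ptprb lies on the plus strand at chr10:115712579-115826594, with 32 exons. Angpt2 sits wholly inside Mcph1, a gene on the opposite strand, with 0 exonic bases in common. Svep1 shares 2244 of its 16117 exonic bases with the antisense long noncoding RNA Gm17243, and Angpt1 shares 283 of 4256 with the antisense Gm17473. Whether the counting used the strand is not given in the sources used here, so reads from those shared stretches cannot be told apart.

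Promoter sequences were at hand for 3 of the 6 genes in the RefSeq table of the mouse GRCm38.p6 assembly, and they are shown because they hold the gene with the largest difference between ages, Svep1, and the receptor pair. Each covers the 250 bases before the transcription start, read 5′ to 3′ on the strand of the gene. Capitals mark the letters AGGAAG, a core bound by ETS factors, or their reverse complement. Their positions in that assembly are chr4:58206597-58206846 on the minus strand for Svep1, chr4:94739039-94739288 on the plus strand for Tek and chr4:118489850-118490099 on the minus strand for Tie1.
Svep1: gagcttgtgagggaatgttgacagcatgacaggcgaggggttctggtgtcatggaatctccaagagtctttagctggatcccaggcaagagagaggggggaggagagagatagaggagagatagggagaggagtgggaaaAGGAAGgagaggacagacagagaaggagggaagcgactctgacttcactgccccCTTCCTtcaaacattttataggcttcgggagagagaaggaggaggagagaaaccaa
Tek: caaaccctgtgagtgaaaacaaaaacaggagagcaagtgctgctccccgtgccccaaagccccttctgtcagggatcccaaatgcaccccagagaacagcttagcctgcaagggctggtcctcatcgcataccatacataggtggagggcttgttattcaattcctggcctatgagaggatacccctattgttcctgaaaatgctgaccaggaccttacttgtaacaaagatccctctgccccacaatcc
Tie1: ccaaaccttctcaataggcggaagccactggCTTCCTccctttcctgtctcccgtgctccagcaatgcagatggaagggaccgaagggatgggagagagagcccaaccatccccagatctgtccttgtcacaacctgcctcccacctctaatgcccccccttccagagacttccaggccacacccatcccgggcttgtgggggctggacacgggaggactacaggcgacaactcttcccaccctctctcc
The Svep1 window held 2 matches to AGGAAG counted over both strands, the Tie1 window held 1 and the Tek window held 0. Of 32851 windows of the same length, 29.5% held at least 1 such match. The forkhead letters GTAAACA were present in 0 of the 3 windows and in 3.17% of all windows. A match describes the letters of the window and is no measure of binding.

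Sequencing gave 23001556 to 31651817 counts per sample, so that 3 counts, used as the limit that a count of 0 allows, equalled 0.0948 to 0.130 CPM. The libraries fell into separate kinds by the share of counts assigned to Lars2 and to the ribosomal RNA precursor Rn45s. Young replicate 3 and the 127-week sample had 1.29% and 0.960% of their counts there, while the other 4 had 4.68 to 5.53%. The former are called Rn45s-low and the latter Rn45s-high. Each kind held both ages, and differences within each kind are given beside the results of the 6 genes and of some of the other genes. With the quasi-likelihood test of edgeR over 14612 genes, 0 were called higher and 0 lower in aged ECs at an adjusted p below 0.05, the smallest adjusted p being 0.0735. At an unadjusted p below 0.05 there were 1216 higher and 631 lower genes, and DESeq2 called 480 higher and 150 lower. None of the 6 genes of the axis therefore passed the threshold in the edgeR test, and sizes are given with their intervals.

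Per length of transcript, the receptors and the phosphatase stood far above the ligands in liver ECs of both ages. In young ECs the FPKM was 368 ± 9.40 for Tie1, 340 ± 117 for Ptprb and 331 ± 7.35 for Tek (mean ± SD, n = 3). Angpt2 followed at 20.1 ± 7.51 FPKM, Angpt1 at 0.185 ± 0.0314 and Svep1 at 0.0666 ± 0.0247. Tie1, Ptprb and Tek overlapped between neighbours in that order, whereas Tek stood 16.5-fold above Angpt2 without overlap and Angpt2 stood 109-fold above Angpt1 without overlap. Among 24346 symbols with an FPKM, Tie1 ranked 211, Ptprb 241 and Tek 257 in young ECs, and Angpt2 ranked 4024, Angpt1 13618 and Svep1 14903.

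In aged ECs the FPKM was 328 ± 34.0 for Tie1, 252 ± 71.8 for Tek and 246 ± 95.5 for Ptprb, and these again overlapped with their neighbours. The ligands measured 38.3 ± 27.9 FPKM for Angpt2, 0.560 ± 0.392 for Angpt1 and 0.279 ± 0.0231 for Svep1. Angpt1 and Svep1, apart in young ECs, overlapped in aged ECs, where the lowest Angpt1 value was 0.237 and the highest Svep1 value was 0.303. Angpt2 stood 68.5-fold above Angpt1 in the aged means. The order among Tie1, Ptprb and Tek rests on small gaps, and in CPM per kilobase of the longest transcript Ptprb came first in young ECs with 345 against 331 for Tie1 and 330 for Tek.

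**Figure D1:**
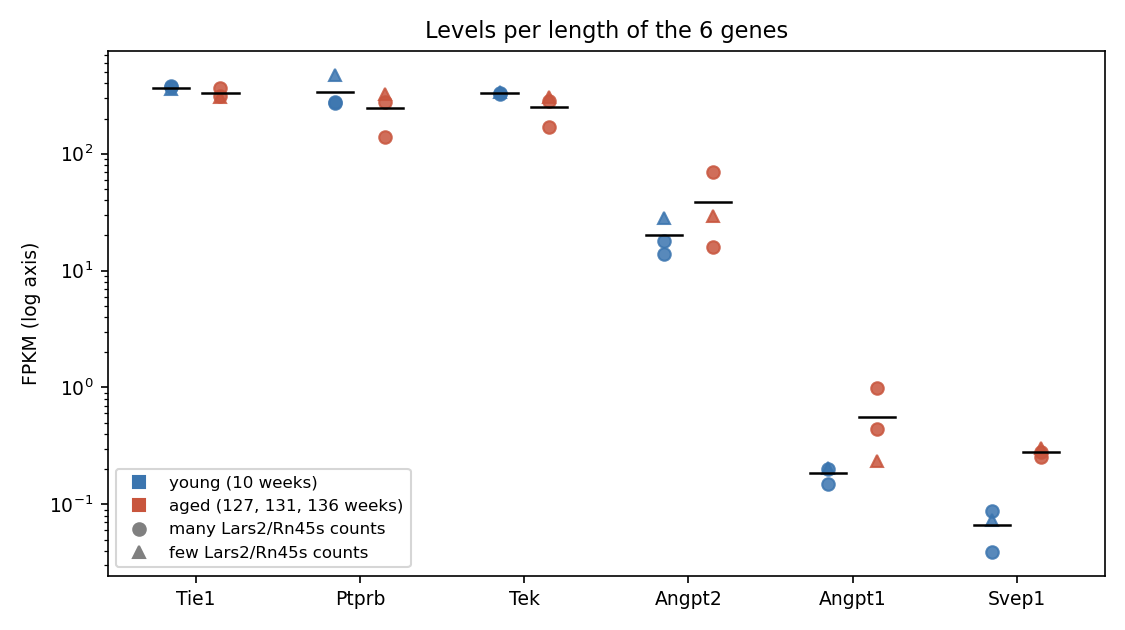
Levels per length of the 6 genes, as FPKM on a log axis, with 1 point per sample (blue, young; red, aged; circles, libraries with many Lars2 and Rn45s counts; triangles, libraries with few) and a bar at each group mean. Tie1, Ptprb and Tek lie between 140 and 475 FPKM in every sample, Angpt2 lies between 13.9 and 69.6, and Angpt1 and Svep1 lie below 1.

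Svep1, the matrix ligand, was the gene of the axis with the largest difference between ages, at very low levels throughout. Its counts were 27, 10 and 26 in the young samples and 100, 77 and 79 in the 127-, 131- and 136-week samples. As CPM these were 1.00, 0.451 and 0.820 in young ECs and 3.44, 3.00 and 3.21 in aged ECs. Every aged sample lay above every young sample, and the aged samples lay close to each other. The mean was 0.759 ± 0.282 CPM in young and 3.21 ± 0.222 CPM in aged ECs (SD, n = 3 each), a fitted 4.2-fold difference with a log2 fold change of 2.07 (SE 0.44, 95% interval 1.05 to 3.09). In the edgeR test its unadjusted p was 0.00187, the 128th smallest of all genes, and its adjusted p was 0.209. DESeq2 gave it an adjusted p of 8.97e-04, as the only gene of the axis that DESeq2 called, where 4.31% of all genes were called by that tool and 3.28% were called higher.

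The difference in Svep1 was of like size in both kinds of library. The log2 difference was 2.04 within the Rn45s-high libraries and 1.94 between the Rn45s-low pair. Leave-one-out fits gave a log2 fold change that ranged from 1.81 to 2.32. On the scale of log2(FPKM + 0.1) it was 1.2 and on that of log2(FPKM + 1) it was 0.26, since either pseudocount exceeds the young FPKM of Svep1. Svep1 had an unadjusted p below 0.05 under all 19 alternatives tried, although the adjusted p passed the threshold in DESeq2 alone. In these bulk samples, a different number of cells of a type that makes a transcript and a different amount of that RNA per cell cannot be told apart.

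Angpt1, the Tie2 agonist, was scarce in these ECs and was higher in aged samples to unequal degrees. Its counts were 17, 19 and 27 in young samples and 30, 49 and 105 in the 127-, 131- and 136-week samples, or 0.633, 0.858 and 0.852 CPM against 1.03, 1.91 and 4.26 CPM. The aged samples all lay above the young ones, but the 127-week sample lay only just above them and the 136-week sample lay far above. The mean was 0.781 ± 0.128 CPM in young and 2.40 ± 1.67 CPM in aged ECs (n = 3 each), with a log2 fold change of 1.61 (SE 0.61, 95% interval 0.19 to 3.03; edgeR adjusted p = 0.355). Without the 136-week sample the log2 fold change was 0.91, with an adjusted p of 0.785 by edgeR. With all 6 samples, it was 1.05 on the scale of log2(FPKM + 0.1) and 0.37 on that of log2(FPKM + 1). Among Rn45s-high libraries the log2 difference was 1.82, and between the Rn45s-low pair it was 0.25.

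Angpt2, the EC-made ligand, differed more between samples of 1 age than between the ages. It measured 48.7, 62.1 and 97.0 CPM in young ECs and 101, 56.0 and 244 CPM in the 127-, 131- and 136-week samples. The ages overlapped, since the 131-week sample lay below 2 of the young ones, and the 136-week sample stood apart at 351% of the young mean. The means were 69.3 ± 25 CPM in young and 134 ± 97.9 CPM in aged ECs (n = 3 each), and the log2 fold change was 0.95 (SE 0.52, 95% interval -0.28 to 2.17; edgeR adjusted p = 0.516). Without the 136-week sample it was 0.18, with an adjusted p of 0.963 by edgeR. The log2 difference was 1.09 within the Rn45s-high libraries and 0.06 between the Rn45s-low pair. Mcph1, the gene around Angpt2, measured 7.52, 8.67 and 12 CPM in young ECs and 6.16, 5.95 and 6.30 CPM in aged ECs. Whether reads from Mcph1 entered the Angpt2 values was not tested.

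**Figure D2:**
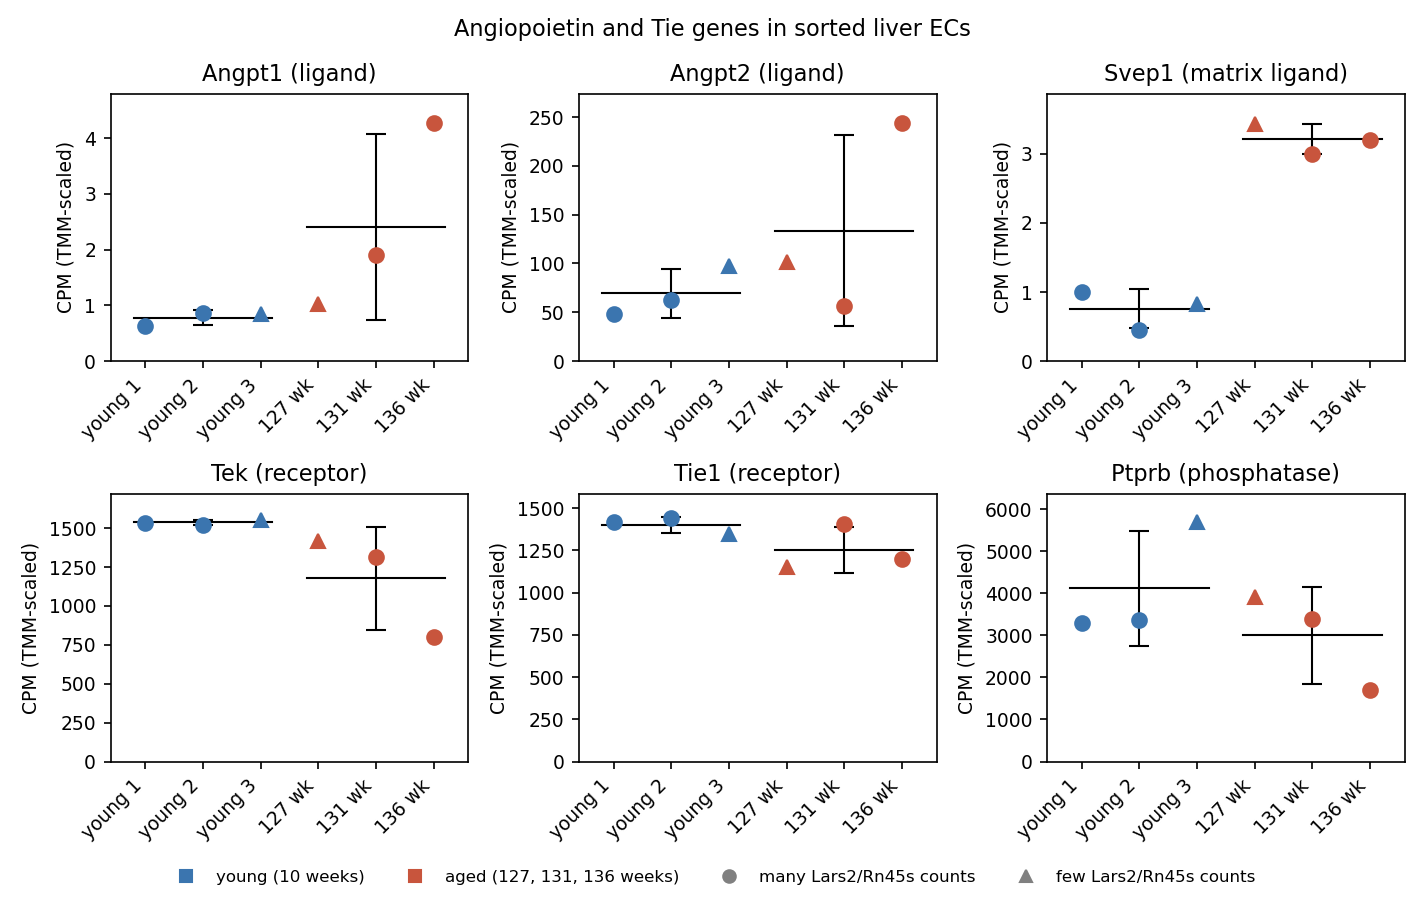
TMM-scaled CPM of each of the 6 genes in each sample, on a separate linear axis from 0 for each gene, with the group mean and SD as black lines (n = 3 per age; colours and shapes as for the levels per length). Svep1 separates the ages with little spread among aged samples, Angpt1 and Angpt2 are highest in the 136-week sample, and Tek is lowest there.

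Tek, the gene of the receptor Tie2, was nearly constant in young ECs and was lower in each aged sample. It measured 1535, 1522 and 1554 CPM in young ECs and 1416, 1315 and 801 CPM in the 127-, 131- and 136-week samples. The aged samples all lay below the young ones, and the 136-week sample lay lowest, at 52.1% of the young mean. The coefficient of variation was 1.06% among young and 28.0% among aged samples. The means were 1537 ± 16.2 CPM and 1177 ± 330 CPM (n = 3 each), with a log2 fold change of -0.38 (SE 0.24, 95% interval -0.95 to 0.18; edgeR adjusted p = 0.568). Without the 136-week sample the log2 fold change was -0.17, and the log2 difference within libraries was -0.57 for the Rn45s-high and -0.13 for the Rn45s-low kind. With libraries scaled to the pan-endothelial markers, the log2 fold change of Tek was -0.19.

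Tie1, the partner receptor, varied least of the axis in aged ECs apart from Svep1. It measured 1415, 1440 and 1345 CPM in young ECs and 1150, 1405 and 1199 CPM in aged ECs. The 131-week sample fell among the young samples, and the other 2 aged samples lay below them. The log2 fold change was -0.16 (SE 0.17, 95% interval -0.55 to 0.23; edgeR adjusted p = 0.752). When libraries were scaled to the pan-endothelial markers, which moved the median log2 fold change of all genes from 0.01 to 0.22, that of Tie1 was 0.032, so the sign of its difference depends on the scaling. Its log2 difference was -0.14 within the Rn45s-high libraries and -0.23 between the Rn45s-low pair.

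Ptprb, the phosphatase that acts on Tie2, had a young sample and an aged sample that stood apart in opposite directions. It measured 3294, 3357 and 5687 CPM in young ECs and 3918, 3376 and 1710 CPM in the 127-, 131- and 136-week samples. The 127- and 131-week samples lay within the range of the young ones, young replicate 3 was the highest and the 136-week sample was the lowest, at 41.6% of the young mean. The log2 fold change was -0.45 (SE 0.37, 95% interval -1.32 to 0.41; edgeR adjusted p = 0.678). It was -0.15 without young replicate 3 and -0.17 without the 136-week sample, and the log2 difference was -0.47 within the Rn45s-high libraries and -0.54 between the Rn45s-low pair. With libraries scaled to the pan-endothelial markers, the log2 fold change of Ptprb was -0.24.

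Counted together, the CPM ranges of the ages did not overlap for 3 of the 6 genes, against 17.9% of all genes tested. Angpt1 and Svep1 were the 2 with aged samples higher, against 9.62% of all genes, and Tek was the 1 with aged samples lower, against 8.33%. At an unadjusted p below 0.05 there were 2 of the 6, Angpt1 and Svep1, against 12.6% of all genes. Angpt1 was below 0.05 under 11 of the 19 alternatives and not under the other 8, among them leaving out the 136-week sample or any young sample. Both genes were higher in aged ECs, against 8.32% of all genes, and 0 were lower, against 4.32%. All 3 ligand genes had a fitted log2 fold change above 0 and the 2 receptor genes and Ptprb had one below 0, where 51.1% of all genes were above 0. With 6 genes, chosen with earlier results of these data known, these counts describe the list and are not a test of it.

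**Figure D3:**
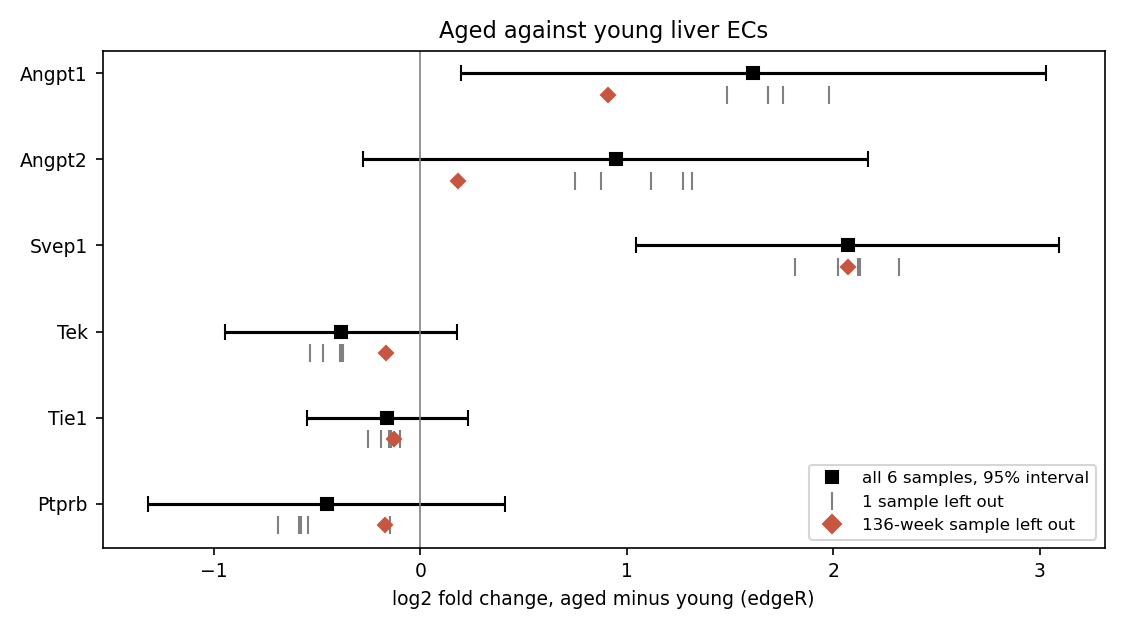
Log2 fold change of aged over young liver ECs for each of the 6 genes, from edgeR on all 6 samples with its 95% interval (black), with 1 sample left out (grey ticks) and with the 136-week sample left out (red diamonds). The intervals of Svep1 and Angpt1 lie above 0, and without the 136-week sample Angpt1, Angpt2, Tek and Ptprb lie nearer to 0 while Svep1 stays at 2.07.

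Balances within the axis were compared as ratios of FPKM + 0.1 in the same sample. The added 0.1 matters little for Tek, Tie1 and Ptprb, but it is near the young Angpt1 values of 0.148 to 0.204 FPKM and lowers every ratio of Angpt2 to Angpt1. With 3 samples against 3, the two-sided exact permutation test used here cannot give a p below 0.1. The ratio of Angpt2 to Angpt1 was 56.5, 59.4 and 93.8 in young ECs and 87.3, 29.6 and 63.6 in the 127-, 131- and 136-week samples. The ages overlapped, with both the antagonist and the agonist transcript highest in the 136-week sample, and the log2 difference was -0.31 (exact permutation p = 0.7). Its value and sign were not stable, at -0.63 for counts + 0.5, 0.35 with a pseudocount of 1 and 0.13 without the 131-week sample.

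The ratio of Tek to Tie1 was 0.888, 0.866 and 0.949 in young ECs and 1.01, 0.766 and 0.547 in aged ECs. The aged samples lay on either side of the young ones, with a log2 difference of -0.26 (exact permutation p = 0.5) that was -0.03 without the 136-week sample and -0.48 without the 127-week sample. The ratio of Ptprb to Tek was 0.822, 0.845 and 1.40 in young ECs and 1.06, 0.983 and 0.818 in aged ECs. The ages overlapped, with a log2 difference of -0.06 (exact permutation p = 0.8), and the 136-week sample, lowest for both transcripts, had a ratio close to those of young replicates 1 and 2. Within the Rn45s-high and the Rn45s-low libraries, the log2 differences were -0.42 and -0.10 for Angpt2 to Angpt1, -0.44 and 0.09 for Tek to Tie1, and 0.11 and -0.40 for Ptprb to Tek.

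Downstream of Tie2, 22 transcripts of adaptors, kinases and effectors were examined, among them the phosphoinositide 3-kinase, AKT and RAS genes. The fitted log2 fold change was above 0 for 15 and below 0 for 7, with a median of 0.12 against 0.01 over all genes, and 0 passed the edgeR threshold. At an unadjusted p below 0.05, 1 was higher and 1 was lower, where 8.32% of all genes were higher and 4.32% lower. Their summed level was 1587 to 1643 CPM in young and 1577 to 1654 CPM in aged ECs, and these ranges overlapped.

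Grb14, a growth factor receptor-bound adaptor that can bind Tie2, was the transducer with the largest difference. It measured 1.15, 1.26 and 0.536 CPM in young ECs and 3.06, 4.94 and 3.13 CPM in aged ECs, without overlap. Its log2 fold change was 1.92 (SE 0.47, edgeR adjusted p = 0.237). Nras, a RAS GTPase, measured 174, 173 and 157 CPM in young and 135, 131 and 133 CPM in aged ECs, also without overlap, with a log2 fold change of -0.34 (SE 0.12, edgeR adjusted p = 0.346). Shc1, an adaptor of receptor tyrosine kinases, measured 149, 170 and 125 CPM in young and 192, 161 and 275 CPM in aged ECs, which overlapped (log2 fold change 0.50, edgeR adjusted p = 0.426). Foxo1, the transcription factor that AKT keeps out of the nucleus when Tie2 is active, measured 173, 145 and 175 CPM in young and 228, 156 and 193 CPM in aged ECs. The ages overlapped for Foxo1, with a log2 fold change of 0.23 (SE 0.18, edgeR adjusted p = 0.664).

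Transcripts linked to FOXO1, which include genes reported to be regulated by it in ECs, numbered 7. Of these, 5 had a log2 fold change above 0 and 2 below 0, with a median of 0.10. At an unadjusted p below 0.05 there were 2 higher and 0 lower, beside 8.32% and 4.32% of all genes. Esm1, the endothelial proteoglycan endocan, measured 36.8, 42.1 and 105 CPM in young and 127, 142 and 162 CPM in aged ECs. The ages did not overlap, young replicate 3 lay nearest to the aged samples, and the log2 fold change was 1.23 (SE 0.39, edgeR adjusted p = 0.305). The log2 difference of Esm1 was 1.94 within the Rn45s-high libraries and 0.28 between the Rn45s-low pair. Cited2, a transcriptional co-regulator, had a log2 fold change of 0.71 (SE 0.28, edgeR adjusted p = 0.368), with the 127-week sample at 41.1 CPM within the young range of 32.4 to 45.2. Its log2 difference was 1.06 within the Rn45s-high libraries and -0.14 between the Rn45s-low pair. Bcl6, a transcriptional repressor, measured 22.2 to 35.6 CPM in young and 18.3 to 25.1 CPM in aged ECs (log2 fold change -0.40, edgeR adjusted p = 0.543).

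Partners of the axis at the cell surface, namely junction proteins, integrins that bind angiopoietins or polydom, and proteases that shed Tie receptors, numbered 12. Their log2 fold change was above 0 for 5 and below 0 for 7, with a median of -0.11. With libraries scaled to the pan-endothelial markers the median was 0.10, so its sign depends on the scaling. At an unadjusted p below 0.05 there were 0 higher and 1 lower, beside 8.32% and 4.32% of all genes. That 1 was Itga9, the alpha 9 chain of the integrin to which polydom binds. It measured 424, 464 and 565 CPM in young ECs and 227, 311 and 245 CPM in the 127-, 131- and 136-week samples. Every aged sample lay below every young one, the opposite of the order of Svep1 in the same samples. The log2 fold change of Itga9 was -0.89 (SE 0.19, 95% interval -1.34 to -0.45; edgeR adjusted p = 0.209), and its log2 difference was -0.68 within the Rn45s-high libraries and -1.31 between the Rn45s-low pair.

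Of the other surface partners, Jup, the junction protein plakoglobin, measured 388, 313 and 264 CPM in young and 401, 411 and 431 CPM in aged ECs without overlap (log2 fold change 0.37, SE 0.18, edgeR adjusted p = 0.456). Plekhg5, a guanine nucleotide exchange factor, measured 24.7, 28.5 and 34.6 CPM in young and 48.2, 30.1 and 36.7 CPM in aged ECs, with overlap (log2 fold change 0.39, edgeR adjusted p = 0.527). Cdh5, which encodes VE-cadherin, the junction substrate of VE-PTP, measured 459, 469 and 351 CPM in young and 241, 404 and 461 CPM in aged ECs. Cdh5 overlapped between ages and was not low in the 136-week sample, where Ptprb and Tek were lowest (log2 fold change -0.21, edgeR adjusted p = 0.807). Its log2 difference was -0.10 within the Rn45s-high libraries and -0.54 between the Rn45s-low pair.

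Other angiopoietin and angiopoietin-like genes were examined with Lect2, which encodes a secreted protein described as a Tie1 ligand. These 8 summed to 17.4 to 35.2 CPM in young and 22.4 to 51.6 CPM in aged ECs. Lect2 stayed under the filter on low counts. Of the 7 tested, 4 had a log2 fold change above 0, against 51.1% of all genes, and 3 below 0, against 48.9%, with a median of 0.16. Angptl6, an orphan angiopoietin-like gene, measured 4.47, 3.57 and 1.51 CPM in young and 0.653, 0.856 and 0.731 CPM in aged ECs, without overlap (log2 fold change -2.08, SE 0.51, edgeR adjusted p = 0.237). The deposited FPKM of Angptl6 did not match its counts, at 6.40, 6.09 and 3.70 in young and 3.99, 4.43 and 3.59 in aged ECs, which overlapped, so its difference rests on the count table alone. Angptl4, an inhibitor of lipoprotein lipase, measured 8.0, 7.58 and 6.34 CPM in young and 12.4, 8.32 and 30.3 CPM in aged ECs, again without overlap and highest in the 136-week sample (log2 fold change 1.22, SE 0.46, edgeR adjusted p = 0.358). Angpt4, the remaining angiopoietin, ranged from 0.0451 to 0.690 CPM over the 6 samples and had a log2 fold change of 1.03 (SE 1.12, edgeR adjusted p = 0.771), with log2 differences of 1.19 in the Rn45s-high and -0.21 in the Rn45s-low libraries.

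The samples carried the markers of ECs, and the summed levels of markers of EC types differed between ages beside the axis. Pecam1, which encodes the sorted antigen CD31, lay at 1369 to 1589 CPM in young and 1366 to 1635 CPM in aged ECs. The 10 pan-endothelial markers summed to 13685 to 15416 CPM in young and 10086 to 12558 CPM in aged ECs. In the fit 6 of 10 were lower, against 48.9% of all genes, and 4 were higher, against 51.1%. At an unadjusted p below 0.05 by edgeR there were 3 lower, against 4.32%, and 0 higher, against 8.32%. The sum leaned on Eng, with means of 4995 CPM in young and 3967 CPM in aged ECs, and on Kdr, with 3507 and 2237 CPM. The 9 sinusoidal EC markers summed to 15657 to 17213 CPM in young and 6087 to 10922 CPM in aged ECs, with 8 of 9 lower, against 48.9% of all genes, and 7 of those at an unadjusted p below 0.05, against 4.32%. The 12 large-vessel EC markers summed to 6531 to 9018 CPM in young and 10668 to 11877 CPM in aged ECs, with 12 of 12 higher, against 51.1% of all genes, and 4 of those at an unadjusted p below 0.05, against 8.32%. Among those 4 were Vcam1, with means of 889 CPM in young and 2060 CPM in aged ECs, and Selp, with 312 and 804 CPM. The paper describes Selp as an NF-kB target that inflammation raises, so a rise in this sum is not specific to vessel type. In the same 6 samples, Svep1 and Angpt1 separated the ages in the direction of the large-vessel sum. Tek separated them in the direction of the pan-endothelial and sinusoidal sums. The marker lists, too, were chosen with earlier results of these data known. The part of these EC types in the differences of the axis was not tested.

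Markers of other cells that make angiopoietins were set beside the ligands. The 6 lymphatic EC markers summed to 2623, 3305 and 2111 CPM in young and 3242, 2152 and 6061 CPM in aged ECs, with the 136-week sample highest, as for Angpt2, and Ccl21a at 0 in every sample. Of the 5 lymphatic markers tested, 4 were higher in the fit, against 51.1% of all genes, and 1 was lower, against 48.9%. Their median log2 fold change was 1.23. Prox1 and Mmrn1 were the 2 higher at an unadjusted p below 0.05 by edgeR, against 8.32% of all genes, and 0 were lower, against 4.32%. Prox1, the transcription factor that defines lymphatic ECs, measured 27.1, 34.1 and 16.1 CPM in young and 68.2, 26.3 and 160 CPM in aged ECs, in the same order of aged samples as Angpt2 but lowest in young replicate 3, where Angpt2 was highest among young samples. Flt4, the gene of the receptor VEGFR3, was the 1 lower, at 1438, 1809 and 1544 CPM in young and 763, 1108 and 1462 CPM in aged ECs, and did not follow that order. The 15 markers of stellate cells, mural cells and fibroblasts summed to 409, 292 and 111 CPM in young and 132, 179 and 319 CPM in aged ECs. In the fit 8 were higher, against 51.1% of all genes, and 7 were lower, against 48.9%. With an unadjusted p below 0.05 by edgeR there were 0 higher, against 8.32%, and 1 lower, Lrat, against 4.32%. Hand2 measured no more than 0.670 CPM. For the sum of these 15 markers, the aged samples ran in the same order as for Angpt1. Young replicate 1, though, had the highest sum of all 6 samples and the lowest Angpt1, and the sums of the ages overlapped. Rgs5, a pericyte gene, measured 8.60, 7.67 and 4.04 CPM in young and 3.75, 8.40 and 14.8 CPM in aged ECs, again with the aged samples in the order of Angpt1 but with young replicate 1 above the 127- and 131-week samples, and Lrat, a stellate cell gene, was lower in every aged sample than in any young one. The log2 difference of Rgs5 was 0.45 within the Rn45s-high libraries and -0.10 between the Rn45s-low pair, and that of Lrat was -2.34 and -1.07. The 6 platelet markers summed to 18.6 to 28.0 CPM in young and 19.2 to 22.9 CPM in aged ECs.

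The 12 leukocyte markers summed to 32.7 to 71.7 CPM in young ECs and to 180, 33.5 and 481 CPM in the 127-, 131- and 136-week samples, with 12 of 12 higher in the fit, against 51.1% of all genes, and 7 at an unadjusted p below 0.05, against 8.32%. Angpt2 had the same order of aged samples as that sum. Svep1 measured 3.44, 3.00 and 3.21 CPM in those samples, and the leukocyte sum of the 131-week sample lay within the young range. The 10 hepatocyte markers summed to 233 to 305 CPM in young and 185 to 309 CPM in aged ECs. Of the 9 tested, 8 were lower in the fit, against 48.9% of all genes. An unadjusted p below 0.05 was reached by 3 of these, against 4.32%, and 5 were lower without overlap, against 8.33%. The median log2 fold change was -0.73, while Trf was higher in the fit and made up much of the sum. The 7 cholangiocyte and mesothelial markers summed to 11.3 to 29.0 and 20.5 to 32.4 CPM. The CD31+CD45- gate is meant to leave out leukocytes and stromal cells but keeps lymphatic ECs. The part of these cells in the values of Angpt1, Angpt2, Tek and Ptprb in the 136-week sample was not tested.

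**Figure D4:**
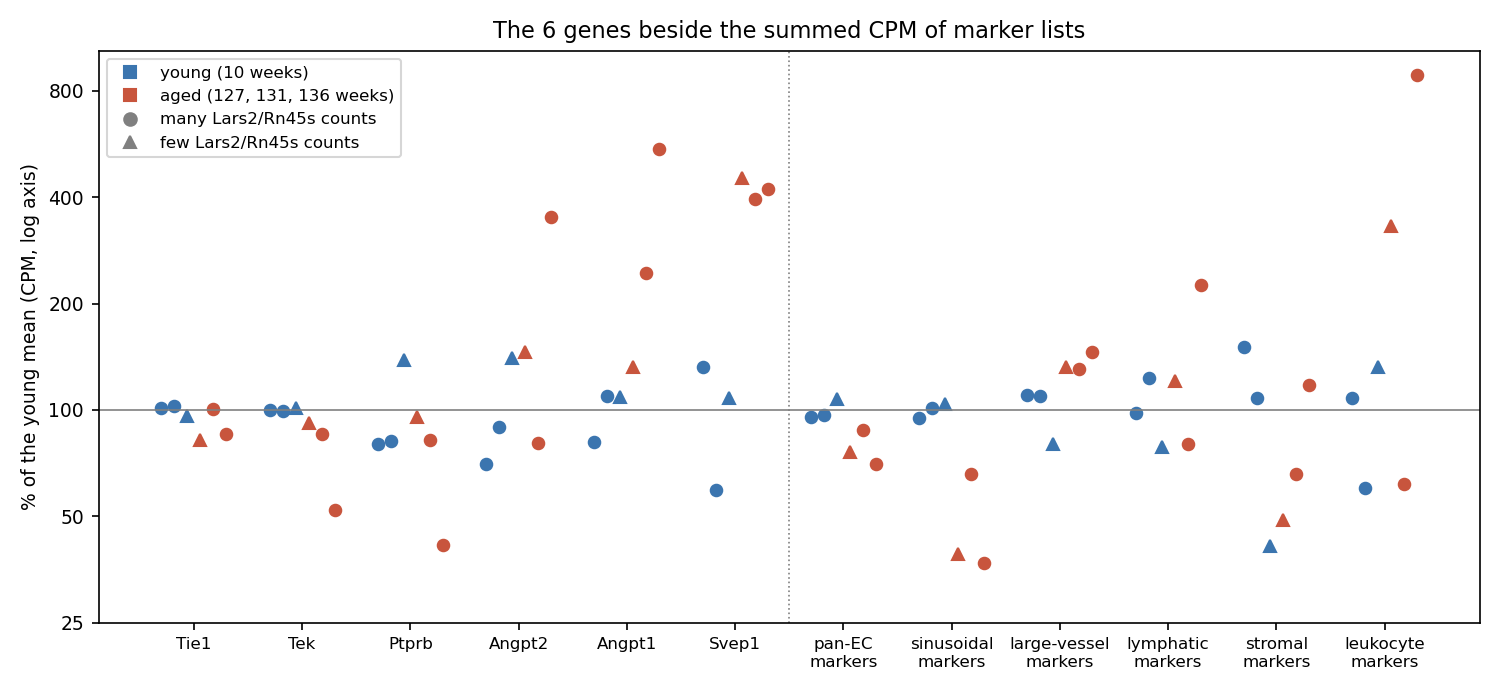
The 6 genes and, right of the dotted line, the summed CPM of 6 marker lists, each as a percentage of its young mean on a log axis, with 1 point per sample in the order young 1 to 3 and 127, 131 and 136 weeks (colours and shapes as for the levels per length). The 136-week sample is at 52.1% for Tek, 41.6% for Ptprb, 351% for Angpt2 and 546% for Angpt1, while Svep1 is at 395 to 453% in all 3 aged samples.

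Genes whose profile over the 6 samples came closest to each gene of the axis were listed by the root mean square distance between centred log2(CPM + 1) profiles, among the 10223 or 10224 other genes with a mean CPM of at least 5. For Tek they were Slc22a5, a carnitine transporter, at a distance of 0.057 and Hfe, the haemochromatosis gene, at 0.058. Hfe measured 304, 307 and 319 CPM in young and 261, 277 and 161 CPM in aged ECs, with the 136-week sample lowest, as for Tek. For Tie1 they were Fkbp8 at 0.023 and Golph3l at 0.026, and for Ptprb Snx24 lay at 0.083. For Angpt1 they were Rcan1, a regulator of calcineurin, at 0.087 and Errfi1, an inhibitor of EGF receptor signalling, at 0.097. Rcan1 measured 261, 278 and 259 CPM in young and 327, 403 and 753 CPM in aged ECs, with the aged samples in the order of Angpt1. For Angpt2 the nearest were Oasl1 at 0.189 and Kcnj8 at 0.228, and for Svep1 they were Rassf5 at 0.113 and Krt8 at 0.169. The added 1 exceeds the young mean CPM of Angpt1 (0.781) and of Svep1 (0.759), which compresses their profiles. The log2 fold change was 0.89 for Rcan1 against 1.61 for Angpt1, and 1.41 for Rassf5 against 2.07 for Svep1. The points share 6 libraries and their scaling, so that a near profile is a description of these samples.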

How the data were processed

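The 6 genes, the pathway lists and the marker lists were chosen with earlier results of these data known. Libraries made with the TruSeq v2 kit were read as 75-base single-end reads. The submitters' processing notes name CASAVA 1.8.2, TopHat2 2.1.0, Cuffnorm 2.2.1 and mm9, and the counting program and annotation are not given in the sources used here. The authors deposited whole-number counts per gene symbol, which were not normalized, and FPKM values that Cuffnorm scaled between samples. The study gives 3 independent samples per age, and no 2 samples of the same age agreed within sampling noise (smallest chi-square per degree of freedom 21.3).

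The filter on low counts kept every gene that reached a CPM of 0.5 in any sample. Counts were scaled by TMM (factors 0.963 to 1.11) and compared with the quasi-likelihood test of edgeR 4.0.16 in R 4.3.3, with no covariate and Benjamini-Hochberg adjustment over all genes tested. The SE is the log2 fold change over the square root of F, and CPM values are TMM-scaled. Differences within library kinds, split at 3% of counts in Lars2 and Rn45s, are on log2(CPM + 0.1). Ratios used log2 of FPKM + 0.1 and the two-sided exact permutation test. No set test was made. The test was also tried on counts simulated from the mean levels and the fitted dispersions of these data. Named genes are the 6 of the axis, the 3 with the smallest p of each pathway list, Foxo1, Cdh5, the 2 nearest profiles per gene and defining markers, except 2 genes that are not reported here. Mcph1 was added after its values were seen. Alternatives were DESeq2 1.42.0, limma 3.58.1 (voom, and log2 FPKM), other scalings and filters, a term for the library kind and leaving out each sample. The restriction to libraries with many Lars2 and Rn45s counts was chosen after seeing the data. Svep1 and Angpt1 rest on few counts. The limit of 3 counts covers counting error only, because PCR copies of a molecule could not be told from separate molecules.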

Additional observations from a re-analysis of the deposited data

How the results depend on the processing

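Of 114 results for the 6 genes over 19 alternatives, 112 kept their direction and their side of the threshold. All 19 reused the same 6 samples or a part of them. Apart from DESeq2, none called more than 13 genes higher or 2 lower, so staying uncalled says little about the 6 genes. Svep1 was called by DESeq2 (log2 fold change 2.06, adjusted p = 8.97e-04), and Tie1 was 0.032 under pan-endothelial scaling. Tek was -0.19 and Ptprb -0.24 under pan-endothelial scaling, against -0.38 and -0.45 in the main fit. That scaling moved the median of all genes to 0.22 and the unadjusted calls from 1216 higher and 631 lower (65.8% higher) to 1949 and 250 (88.6%), and the medians of the transducers, the surface partners, the FOXO1-linked and the other angiopoietin-related genes to 0.32, 0.10, 0.27 and 0.35. Genes called higher and lower numbered 480 and 150 with DESeq2, 13 and 2 with voom quality weights, 3 and 1 without a filter, 1 and 1 with limma on log2(FPKM + 0.1), 1 and 1 with a term for the library kind, and 1 higher each with limma on log2(FPKM + 1) and pan-endothelial scaling. The causes were not tested. Leaving out each sample gave 0 to 1 genes called higher. It gave log2 fold changes of 0.91 to 1.98 for Angpt1, 0.18 to 1.31 for Angpt2, 1.81 to 2.32 for Svep1, -0.53 to -0.17 for Tek, -0.25 to -0.10 for Tie1 and -0.69 to -0.15 for Ptprb. The ratio of Angpt2 to Angpt1 ranged from -0.65 to 0.13 on the log2 scale and was 0.35 with a pseudocount of 1. That of Ptprb to Tek ranged from -0.20 to 0.19, being 0.19 without young replicate 3 and 0.04 without the 136-week sample, and that of Tek to Tie1 from -0.48 to -0.03. Per kilobase of the longest transcript, Ptprb took place 1 and Tie1 place 2 in young ECs. No paired analysis was possible because the ages share no replicate numbers in the labels. Svep1 rests on 10 to 100 counts per sample and Angpt1 on 17 to 105, which adds counting error to their spread.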
